A study of Mus musculus with 16 samples.

Results

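Distal LSD1 sites kept under inhibitor were LSD1 peaks of vehicle-treated mouse CD8+ T cells that lay away from every annotated promoter and were also called in cells given an LSD1 inhibitor. A member was a peak of the Veh LSD1 list whose summit was more than 2.5 kb from every transcription start site (TSS) of a curated RefSeq transcript and which overlapped a GSK LSD1 peak by at least 1 bp. The members were thus chosen by the LSD1 calls of both treatments, and every LSD1 value given below is a description of that choice. Of 21252 Veh LSD1 peaks, 11941 were distal and 4105 of these were kept, a share of 34.4%. The other 7836 distal sites had no GSK LSD1 peak and are called lost sites.

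The cells were splenic CD8+ T cells of OT1 mice, which bear a T cell receptor transgene specific for ovalbumin. Anti-CD3, anti-CD28 and IL-2 activated them over 48 h, and IL-2 alone carried them through 3 more days of expansion. GSK2879552 (GSK), an irreversible LSD1 inhibitor, was added for activation and expansion at 0.5 μM, and control cells received vehicle (Veh). Chromatin immunoprecipitation with sequencing (ChIP-seq) was done with 6 antibodies, against LSD1, RNA polymerase II (Pol II), H3K27ac and mono-, di- and trimethylated H3K4, and 1 library per antibody and treatment gave 12 peak lists. How many mice the cells came from is not stated in the sources used here. The study did the ChIP-seq in repeated experiments, but the lists used here hold 1 library per group, so no p-value is given. Shares carry Wilson 95% intervals, and differences between kept and lost sites carry Newcombe 95% intervals. Net changes of a mark between treatments carry a 95% interval of another kind. It takes the number of sites whose call changed as fixed and covers only how these divide into gains and losses. It is thus narrower than an interval that also allowed for error in that number. All these intervals cover counting error only, and neighbouring sites are not independent. A peak is a call in a population of cells, so a mark in fewer cells and a weaker mark in every cell cannot be told apart.

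LSD1 (KDM1A) is a flavin-dependent demethylase that removes methyl groups from H3K4me1 and H3K4me2 but not from H3K4me3. It reaches chromatin in CoREST and other corepressor complexes, and is best known for turning off enhancers during differentiation. H3K4me1 and H3K4me2 mark enhancers, H3K4me3 marks active starts of transcription, H3K27ac marks active enhancers and promoters, and Pol II reports engaged transcription. LSD1 away from promoters is thus usually read as LSD1 at enhancers.

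The GSK lists of H3K27ac and H3K4me2 were the ones that stood apart by length, with 2751 H3K27ac peaks against 7410 in Veh and 9437 H3K4me2 peaks against 15219 in Veh. The other lists differed less, with 40272 GSK against 34387 Veh peaks for H3K4me1, 16887 against 15779 for H3K4me3, 15401 against 15638 for Pol II and 19919 against 21252 for LSD1. Promoters of 8 of 8 CD8 T cell marker genes carried H3K4me3 in both treatments. Promoters of 0 of 4 B cell, 0 of 2 CD4 T cell and 0 of 2 NK cell markers did, along with 1 of 4 myeloid markers (Cd14). The part of other cells in the results was not tested.

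The sequences of 5 kept sites are shown as examples at the level of DNA. They were picked from named sites that held a searched motif and had a higher Veh LSD1 fold than most kept sites. They are thus not typical of the set. Each is the 151 bp around the Veh LSD1 summit in mm10, plus strand, with matches to the searched motifs in capitals. The Lef1 site (chr3:131208631-131208781) lay in an intron of Lef1 and had a peak in all 10 other lists. The Bach2 site (chr4:32258261-32258411) lay outside curated transcripts and carried H3K27ac and Pol II in both treatments. The Maf site (chr8:115514560-115514710) and the Cxcr4 site (chr1:128570077-128570227) were intergenic, the first with H3K4me1 in both treatments and the second without any peak of the other lists. The Gphn site (chr12:78350911-78351061) lay in an intron of Gphn and was among the sites with the highest H3K27ac fold in both treatments. Its folds were high for unlike antibodies, in Veh 15.8 for LSD1, 15.3 for H3K27ac and 25.8 for Pol II. Whether misplaced reads contribute to them was not tested. The capitals mark the RUNX motif TGNGGTT, the ETS motif CNGGAAG, the E-box spelled CAGCTG, the other E-box spelled CAGGTG, which ZEB factors also read, the SP/KLF motif GGGCGGG and the motif of GATA factors, which is spelled AGATAA, each on either strand.
Lef1 site: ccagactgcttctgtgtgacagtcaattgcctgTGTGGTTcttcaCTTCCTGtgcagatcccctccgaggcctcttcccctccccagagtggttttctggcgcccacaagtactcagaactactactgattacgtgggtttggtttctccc
Bach2 site: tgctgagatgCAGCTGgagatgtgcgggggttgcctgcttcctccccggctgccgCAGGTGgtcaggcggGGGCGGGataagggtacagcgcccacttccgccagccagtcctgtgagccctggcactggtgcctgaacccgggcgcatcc
Maf site: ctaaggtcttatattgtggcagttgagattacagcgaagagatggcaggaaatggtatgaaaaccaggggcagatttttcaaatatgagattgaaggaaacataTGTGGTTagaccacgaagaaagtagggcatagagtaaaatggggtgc
Cxcr4 site: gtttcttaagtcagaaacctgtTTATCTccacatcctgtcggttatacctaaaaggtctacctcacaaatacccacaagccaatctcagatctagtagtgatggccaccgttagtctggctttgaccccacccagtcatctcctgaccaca
Gphn site: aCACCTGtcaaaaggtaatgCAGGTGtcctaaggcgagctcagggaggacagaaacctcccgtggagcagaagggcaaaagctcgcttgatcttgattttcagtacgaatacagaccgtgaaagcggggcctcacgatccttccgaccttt
A match is a run of letters and not a shown binding event. In the Lef1 site the RUNX match TGTGGTT began at base 34 and the ETS match CTTCCTG at base 46, both before the summit, which is the middle base. The Maf site held a RUNX match at base 105. The Bach2 site held no RUNX or ETS match in this window, but CAGCTG at base 11, CAGGTG at base 56 and GGGCGGG at base 71.

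LSD1 fold enrichment, how far the ChIP signal at the summit exceeds the caller's local background, ran from 2.07 to 23.8 in Veh with a median of 4.98 at kept sites, against a median of 3.81 at lost sites. The median −log10 p of the Veh peak was 9.63 at kept and 5.11 at lost sites, and the median width was 500 bp against 361 bp. In GSK the kept sites had a median fold of 4.82. The median log2 ratio of GSK to Veh fold was -0.05, with quartiles of -0.33 and 0.22. The fold was lower in GSK at 2271 kept sites and higher at 1834. It fell below 0.5 times the Veh value at 73 sites and rose above 2 times at 10. The GSK summit lay a median of 66 bp from the Veh summit, and within 100 bp at 2604 sites (63.4%). LSD1 at a kept site was therefore called at nearly the same place and at a similar fold in both treatments, which the rule in part fixes. The plot of LSD1 fold in Veh and GSK shows all members.

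**Figure D1:**
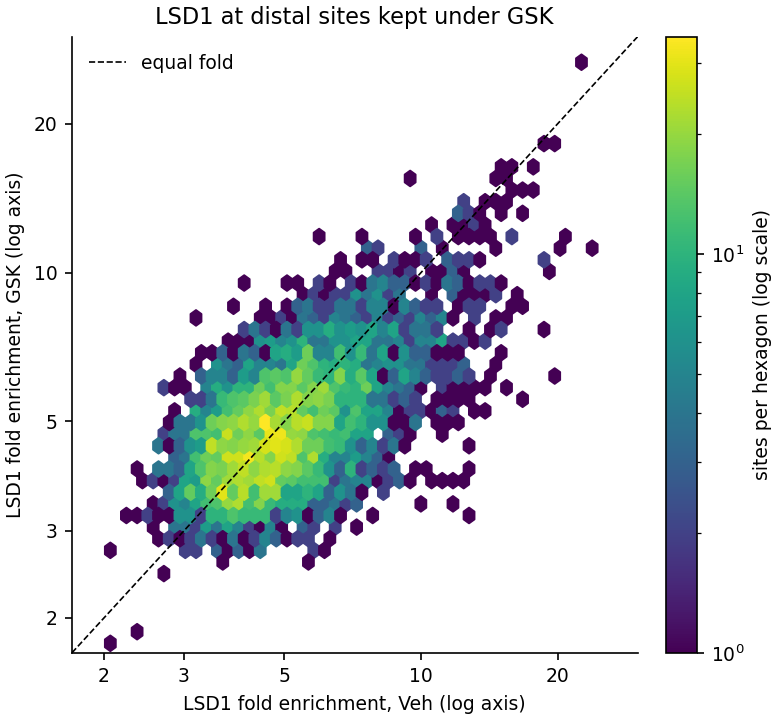
LSD1 fold enrichment of each of the 4105 kept distal sites in Veh (x axis, log scale) and GSK (y axis, log scale). Colour gives the number of sites per hexagon on a log scale and the dashed line marks equal fold. The sites lie along the line with a median log2 ratio of -0.05, and 73 sites fall below 0.5 times their Veh fold.

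The limits of the rule cut through sites of ordinary LSD1 fold. The kept sites nearest to a TSS were those of Cfap126 at 2501 bp, Ms4a4b at 2527 bp and 1700031P21Rik at 2532 bp, with Veh LSD1 from 3.20-fold to 5.48-fold, and those just excluded were at Espn (2482 bp), Grwd1 (2481 bp) and Gad1 (2480 bp), from 4.58-fold to 5.75-fold. The smallest overlaps with a GSK peak were 7 bp at Wdfy4, 9 bp at Gm19510 and 9 bp at Slc35f2, at 2.84-fold to 3.56-fold. The lost sites closest to a GSK peak were at Bcr, Bcl2l11 and Gm21149, with gaps of 3, 6 and 11 bp, at 4.21-fold to 6.15-fold. In all, 525 kept sites had less than 50% of their length covered, and 185 lost sites had a GSK peak within 500 bp.

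Strong Veh LSD1 peaks were kept more often than weak ones. All distal sites were divided by Veh −log10 p into 4 strength classes of equal size, class 1 being the weakest, and the kept share from class 1 to class 4 was 6.53%, 20.7%, 40.9% and 69.4%. At the same LSD1 strength, sites within 2.5 kb of a TSS were kept more often, with shares of 51.8%, 71.8%, 83.8% and 93.2%. Of all 9311 sites near a TSS, 7492 (80.5%, 79.7 to 81.3) were kept. Since kept and lost sites differ in LSD1 strength, the shares of marks and of the main motifs are also given within these classes. Net changes of marks, marks still called in GSK and grouping along the genome are pooled over all strengths.

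Kept sites carried the enhancer mark H3K4me1 more often than lost sites, but the gap was wide only where LSD1 was weak. In Veh 2668 kept sites (65.0%, 63.5 to 66.4) overlapped an H3K4me1 peak and 3059 lost sites (39.0%) did, against 48.0% of all distal sites. In GSK the counts were 2794 kept (68.1%) and 3254 lost sites (41.5%), against 50.6% of all distal sites. The difference in Veh was 25.96 percentage points (24.1 to 27.8) over all sites. Within strength classes, it narrowed from 43.7 (36.6 to 50.4) in class 1 through 23.1 and 6.08 to 3.77 (0.06 to 7.55) in class 4. In GSK, class 4 had a difference of 2.00 points (-1.63 to 5.71), which is within counting error.

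H3K4me2 and H3K4me3 kept their distance at every LSD1 strength. In Veh, H3K4me2 was at 1431 kept sites (34.9%) and 789 lost sites (10.1%), a difference of 24.8 points (23.2 to 26.4), against 18.6% of all distal sites. In GSK it was at 867 kept (21.1%) and 341 lost sites (4.35%), against 10.1% of all distal sites, a difference of 16.8 points (15.5 to 18.1). H3K4me3 was at 1171 kept (28.5%) and 612 lost sites (7.81%) in Veh, a difference of 20.7 points (19.2 to 22.2), against 14.9% of all distal sites. In GSK it was at 1433 kept (34.9%) and 771 lost sites (9.84%), a difference of 25.1 points (23.5 to 26.7), against 18.5% of all distal sites. From class 1 to class 4, the Veh H3K4me3 difference was 29.1, 21.7, 22.0 and 15.0 points, and that of Veh H3K4me2 was 33.7, 25.9, 23.3 and 17.8 points.

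The marks of activity followed the same order at a lower level. In Veh, H3K27ac was at 917 kept sites (22.3%) and 543 lost sites (6.93%), a difference of 15.4 points (14.0 to 16.8), against 12.2% of all distal sites. In GSK it was at 337 kept (8.21%) and 151 lost sites (1.93%), a difference of 6.28 points (5.42 to 7.21), against 4.09% of all distal sites. Pol II was at 656 kept (16.0%) and 361 lost sites (4.61%) in Veh, against 8.52% of all distal sites, a difference of 11.4 points (10.2 to 12.6). In GSK it was at 506 kept (12.3%) and 259 lost sites (3.31%), against 6.41% of all distal sites, a difference of 9.02 points (7.96 to 10.1). In class 4 the differences were 11.5 points for Veh H3K27ac (8.57 to 14.3) and 8.22 for Veh Pol II (5.82 to 10.4). The panel of mark shares sets all 10 lists side by side, and the panel by LSD1 strength shows how the differences vary with the peak.

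**Figure D2:**
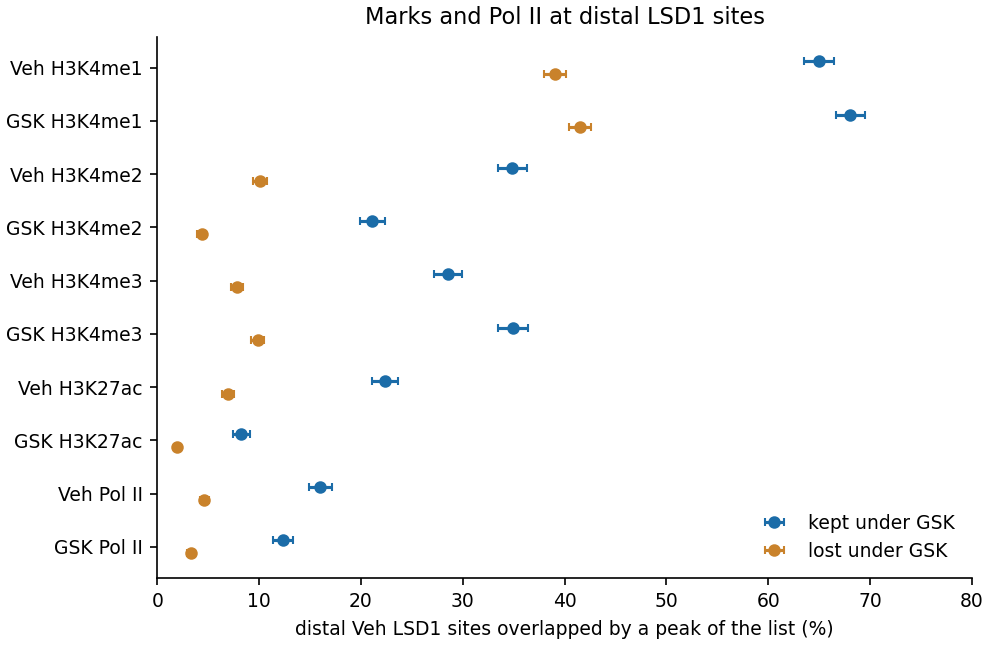
Share of kept (4105, blue) and lost (7836, orange) distal LSD1 sites that overlapped a peak of each of the other 10 lists (x axis, percent), with Wilson 95% intervals for counting error. Kept sites were above lost sites in every list, from 68.1% against 41.5% for GSK H3K4me1 to 8.21% against 1.93% for GSK H3K27ac.

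**Figure D3:**
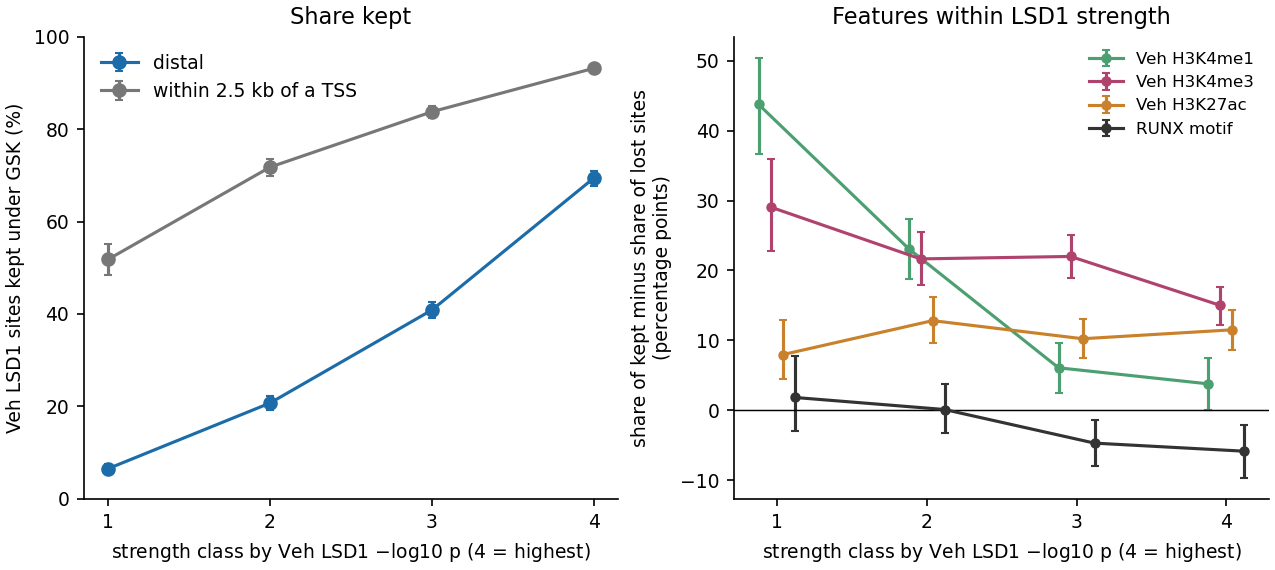
Left, the share of Veh LSD1 sites kept under GSK (y axis, percent) in the 4 strength classes of Veh LSD1 −log10 p, for distal sites and for sites within 2.5 kb of a TSS. Right, the share of kept minus the share of lost distal sites (percentage points) with a Veh H3K4me1, H3K4me3 or H3K27ac peak or a RUNX match, by class. Bars are 95% intervals for counting error, and the RUNX difference goes from 1.83 in class 1 to -5.86 in class 4.

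When the kept sites were divided by the marks they carried, 1478 (36.0%, 34.6 to 37.5) overlapped H3K4me3 in either treatment, against 824 lost sites (10.5%). Another 2057 (50.1%) carried H3K4me1 or H3K4me2 without H3K4me3, the usual picture of an enhancer, against 3083 lost sites (39.3%). Only H3K27ac or Pol II was found at 100 kept sites, and none of the other 10 lists had a peak at 470 (11.5%, 10.5 to 12.46), against 3787 lost sites (48.3%). Read in the other direction, 64.2% of distal sites with H3K4me3 were kept, 40.02% of those with H3K4me1 or H3K4me2 alone and 11.0% of those without any peak. In strength class 4 the 3 groups were closer, with kept shares of 83.5% (80.8 to 85.9), 65.2% (62.9 to 67.5) and 59.4% (54.5 to 64.1). In class 1 they were 35.5%, 14.3% and 1.49%.

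H3K4me3 at a distal site raised the question of promoters that the curated annotation does not hold. Of the 1478 kept sites with H3K4me3, 449 (30.4%, 28.1 to 32.8) had their summit within 1 kb of the start of a predicted RefSeq or GENCODE M21 transcript, against 277 of 2627 kept sites without H3K4me3 (10.5%). At 3 sites the H3K4me3 peak itself reached to within 1 kb of a curated TSS, and 1027 sites met neither condition. The H3K4me3 sites had a median GC content of 56.2% in the window of 100 bp on each side of the summit and a median of 6 CpG, against 51.2% and 3 at kept sites without H3K4me3.

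Under GSK the kept sites as a group gained H3K4me3 and, to a small extent, H3K4me1 calls, and lost H3K4me2, H3K27ac and Pol II calls. Both substrates of LSD1 therefore went in opposite directions in these lists, as did the read numbers of their GSK against Veh libraries. H3K4me1 was called in both treatments at 2458 kept sites, only in GSK at 336 (8.19%) and only in Veh at 210 (5.12%), where 7.07% and 4.38% of all distal sites changed in these ways. The net change, the GSK-only share minus the Veh-only share, was 3.07 percentage points (1.97 to 4.13), and 2.49 (1.78 to 3.17) at lost sites. With both H3K4me1 lists shortened to equal length it was 1.07 points, and without repeat-rich sites and sites with a peak in every list it was 1.94, an alternative chosen after seeing the data.

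For H3K4me2, 750 kept sites had a peak in both treatments, 681 (16.6%) only in Veh and 117 (2.85%) only in GSK, where 10.2% and 1.75% of all distal sites did. The net change was -13.7 points (-14.6 to -12.7), but -1.71 once both lists had equal length. H3K27ac moved the same way, with 315 sites in both treatments, 602 (14.7%) only in Veh and 22 (0.536%) only in GSK, where 8.40% and 0.260% of all distal sites did. Its net change was -14.1 points (-14.5 to -13.6), and -0.29 with lists of equal length. Most of the fall in these calls thus went with the shorter GSK lists. The study's reporting summary lists fewer uniquely mapped read pairs for the GSK than the Veh library of both marks, most clearly for H3K27ac. For H3K4me1, H3K4me3 and Pol II it lists more in GSK, where calls of H3K4me1 and H3K4me3 rose and those of Pol II fell. For LSD1 it lists slightly fewer in GSK, where the list was also shorter. The part of depth in the changes of all these marks and in the division into kept and lost sites was not tested. Of the kept sites with H3K27ac in Veh, 34.4% (31.4 to 37.5) still had it in GSK, against 26.2% (22.6 to 30.0) of lost sites. For H3K4me2 it was 52.4% (49.8 to 55.0) against 31.6% (28.4 to 34.9).

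H3K4me3, which is not a substrate of LSD1, was called in both treatments at 1126 kept sites, only in GSK at 307 (7.48%) and only in Veh at 45 (1.10%). Over all distal sites the shares were 4.35% and 0.821%. The net change was 6.38 points (5.72 to 6.91) at kept and 2.03 (1.68 to 2.33) at lost sites, and 1.66 at kept sites with lists of equal length. The GSK-only H3K4me3 peaks were weak, with a median −log10 p of 7.32, against 19.6 in GSK where both treatments had a peak. Pol II was in both treatments at 366 kept sites, only in Veh at 290 (7.07%) and only in GSK at 140 (3.41%), where 4.20% and 2.09% of all distal sites changed. Its net change was -3.65 points (-4.55 to -2.70) and was -3.61 with lists of equal length. The bar plot of calls by treatment gives these numbers.

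**Figure D4:**
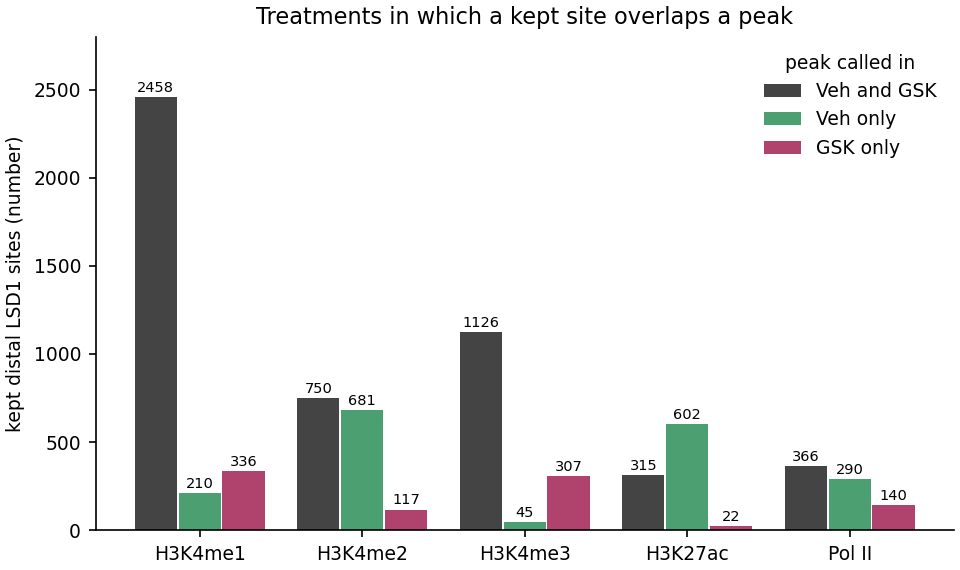
Number of kept distal LSD1 sites (y axis) that overlapped a peak of each antibody in both treatments, in Veh only or in GSK only. Veh-only calls outnumber GSK-only calls for H3K4me2 (681 against 117), H3K27ac (602 against 22) and Pol II (290 against 140), and GSK-only calls outnumber Veh-only calls for H3K4me1 (336 against 210) and H3K4me3 (307 against 45).

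Single sites show both kinds of change. A site 9.78 kb from Mir6546 (chr1:171073756-171074582) had an H3K4me1 peak of 3.93-fold only in GSK, with LSD1 at 4.11-fold in Veh and 4.74-fold in GSK and no peak of any other list. A site 44.7 kb from A630001O12Rik (chr8:126804024-126804511) gained an H3K4me1 peak of 3.42-fold in the same way, with LSD1 at 5.34-fold and 4.58-fold. In the other direction, a site 12.3 kb into Chst12 (chr5:140517665-140518097), which encodes a sulfotransferase, had H3K4me1, H3K4me2, H3K4me3 and H3K27ac peaks in Veh and none of them in GSK, while LSD1 was at 4.002-fold and 3.33-fold. At Mturn the site 17.3 kb into the gene (chr6:54698796-54699076) had H3K4me2 at 7.14-fold in Veh only, and H3K4me3 at 7.46-fold in Veh and 9.15-fold in GSK.

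Pol II without H3K4me3 was strongest at 3 kept sites. A site 15.0 kb from Slfn14 (chr11:83271456-83271776) had Pol II at 15.1-fold in Veh and 11.2-fold in GSK, one 4.86 kb from Sp2 (chr11:96987663-96988012) at 11.5-fold and 8.66-fold, and one 36.8 kb from Gm21119 (chr8:20578033-20578359) at 9.07-fold and 6.57-fold. All of them had H3K27ac in Veh only. Of the Gm21119 site's window 76.1% was repeat-masked.

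The kept sites with the highest LSD1 significance included several in repeats or with peaks in every list. The highest was in an exon of Mavs (chr2:131240142-131240754), the adaptor of cytosolic RNA sensing, with a −log10 p of 3387 in Veh and 3714 in GSK at a fold of 14.7 and 14.4. It carried H3K4me1 at 9.61-fold and 9.33-fold and H3K4me2 at 9.96-fold and 9.87-fold in Veh and GSK, and no other mark. Of the 8 highest, 4 were nearest to Mir101c within chr9:3000433-3035288, with −log10 p from 94.4 to 1335 in Veh, a stretch whose 5 kept sites had a median of 97.01% repeat-masked sequence. A site in an intron of Zc3h7a nearest to Txndc11 (chr16:11143906-11144315) had LSD1 at 23.1-fold in Veh and 26.6-fold in GSK, H3K4me1 at 15.5-fold and 15.4-fold, and Pol II at 19.1-fold and 20.3-fold.

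The sites with the strongest H3K27ac in both treatments also had high folds for unlike antibodies. No list of regions prone to mapping artefacts was applied. The part of such artefacts at these sites and at those of highest LSD1 significance was not tested. Near Pex2 (chr3:5860339-5860661), 284 kb from the TSS, LSD1 was at 17.8-fold, H3K4me3 at 16.6-fold, H3K27ac at 18.7-fold and Pol II at 27.1-fold in Veh, and in GSK at 16.1-fold, 18.8-fold, 15.1-fold and 29.4-fold. At the Gphn site LSD1 was at 15.8-fold in Veh and 14.3-fold in GSK, H3K27ac at 15.3-fold and 12.48-fold and Pol II at 25.8-fold and 28.6-fold. At 20 kept and 2 lost sites all 10 other lists had a peak. The 20 had a median LSD1 fold of 8.71 in Veh and 8.75 in GSK. Repeats covered at least 50% of the window of 681 kept sites (16.6%, 15.5 to 17.8) and of 2030 lost sites (25.9%, 24.9 to 26.9), a gap that went from -12.1 points in strength class 1 to -0.22 (-3.12 to 2.52) in class 4. Without the 695 kept sites of either kind, and lost sites treated alike, the difference in Veh H3K4me1 was 21.5 points. This alternative was chosen after seeing the data. It left in the Mavs and Gphn sites, whose windows were 0% repeat-masked and which had peaks in 4 and 7 of the other lists.

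Kept sites were spread over the genome much like lost sites, though nearer to genes. Their summits were intergenic at 2202 sites (53.6%), intronic at 1683 (41.0%) and exonic at 220 (5.36%), against 53.7%, 43.4% and 2.88% of lost sites. The exonic share was 2.48 points higher (1.72 to 3.29), and 0.73 points (-0.81 to 2.06) in strength class 4. The median distance to the nearest TSS was 20871 bp, against 29288 bp, and 21124 bp against 23956 bp in class 4. With sites chained where summits lay within 12500 bp, 828 kept sites (20.2%) fell into groups of at least 2, against 1152 lost sites (14.7%). The 4 largest groups held 5 kept sites each, at Pisd-ps1 and Sfi1, at Rny3, at Ifitm1 and Ifitm3, and at Mir101c. Kept sites were thus mostly single.

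By sequence, kept sites were richer in GC than lost sites, with a median of 52.7% against 48.3%, and 52.2% against 49.3% in strength class 4. The median was 65.7% near a TSS and 41.8% in genome windows placed every 10 kb. In the window of 100 bp on each side of the summit, the RUNX motif TGNGGTT was found on either strand at 1191 kept sites (29.0%) and 1775 lost sites (22.7%), against 11.1% of sites near a TSS and 10.9% of genome windows. RUNX factors are central to the identity of CD8+ T cells. The ETS motif CNGGAAG was at 28.7% of kept and 23.5% of lost sites and 11.95% of genome windows. The AP-1 motif TGANTCA, whose letters also lie within both composite AP-1 and IRF motifs searched, was at 15.4%, 12.03% and 6.003%. At least 1 of these 3 was present at 2318 kept sites (56.5%, 55.0 to 58.0) and 3634 lost sites (46.4%, 45.3 to 47.5) over all strengths. Within strength classes this difference was 9.33 points (2.37 to 16.6) in class 1, 6.36 (1.95 to 10.8) in class 2, -6.36 (-9.96 to -2.74) in class 3 and -6.53 (-10.2 to -2.80) in class 4.

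The pooled difference in RUNX of 6.36 points (4.70 to 8.04) did not hold at equal LSD1 strength. From class 1 to class 4 it was 1.83 (-2.91 to 7.81), 0.11 (-3.27 to 3.77), -4.70 (-7.91 to -1.43) and -5.86 points (-9.66 to -2.08), so that among the strongest sites it was the lost ones that held the motif more often (41.0% against 35.2%). The mean over classes was -2.15 points for RUNX, 0.06 for AP-1 and 2.64 for ETS. Without H3K4me3 sites the RUNX difference, pooled over all strengths, was 10.55 points (8.51 to 12.6). That value was not divided by strength class. RUNX matches became more frequent with LSD1 strength in both sets, from 16.4% to 35.2% of kept and from 14.6% to 41.0% of lost sites. The ETS difference was 9.03 points (3.19 to 15.8) in class 1 and -1.86 (-5.49 to 1.69) in class 4.

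The SP/KLF motif GGGCGGG, common in promoters, kept its direction. It was at 7.43% of kept and 3.18% of lost sites, 23.8% of sites near a TSS and 1.02% of genome windows, with a difference of 4.25 points (3.39 to 5.17), and from 1.33 (class 4, -0.44 to 2.89) to 7.16 (class 2) within strength classes. Without H3K4me3 sites it was 1.21 points. The motif of GATA factors went the other way, with 6.82% of kept, 9.18% of lost and 13.4% of genome windows, and differences from -5.20 to -0.40 within strength classes. CTCF, matched by a longer motif, was at 3.14% of kept and 3.64% of lost sites, within counting error of each other, against 1.04% of genome windows. The motif of GFI1, a DNA-binding partner of LSD1, was at 2.51% of kept, 2.297% of lost and 1.89% of genome windows. The difference was within counting error, at 0.21 points (-0.35 to 0.82) over all sites and from -1.42 to -0.40 within strength classes, where each interval held 0.

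The nearest TSS assigned the 4105 kept sites to 3050 genes, of which 2334 had 1 site and 26 had at least 5. Genes with the most kept sites included several regulators of CD8+ T cell fate. Bach2, a repressor that holds back effector differentiation, led with 9 kept sites and 4 lost ones, and Runx3, which drives the cytotoxic lineage, had 7 and 4. Maf had 7 and 8, Lef1 had 6 and 1, and Runx1 had 6 and 3. Also among the first 11 were Gm17746 (8 kept and 7 lost), Rny3 (7 and 0) and AU020206 (6 and 1). Gm16793 (6 and 0), Macroh2a3 (6 and 9) and Rplp1 (6 and 3) completed them. Gm17746, AU020206 and Gm16793 are long noncoding RNA genes and Rny3 is a Y RNA gene. The kept Gm16793 sites lay in introns of Mfhas1. A nearest gene need not be the gene a site acts on.

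The sites of Bach2 differed from those of Runx3 and Runx1 in the marks they carried. Of the 9 kept Bach2 sites, 8 overlapped H3K4me3 in either treatment, 7 H3K27ac in Veh, 5 H3K27ac in GSK and 6 Pol II in each treatment, but only 2 H3K4me1 in Veh. They lay from 7.20 to 178 kb from the nearest curated TSS. Whether a Bach2 start outside the curated set lies at any of them was not examined site by site. Their LSD1 ran from 3.00-fold to 7.67-fold in Veh and from 4.15-fold to 7.65-fold in GSK. The strongest Bach2 site, 159 kb upstream of the curated TSS (chr4:32257863-32258638), had H3K27ac at 3.64-fold in Veh and 4.06-fold in GSK and Pol II at 5.26-fold and 2.74-fold. Of the 7 kept Runx3 sites, 4 had H3K4me1 in Veh, 5 in GSK and 1 H3K4me3. Of the 6 kept Runx1 sites, 4 had H3K4me1 in Veh, 5 in GSK and 0 H3K4me3, H3K27ac or Pol II. The strongest Runx1 site, in an intron 43.2 kb from the TSS (chr16:92653849-92654316), went from 10.6-fold LSD1 in Veh to 6.81-fold in GSK, and its H3K4me2 peak of 7.22-fold was called in Veh only.

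Genes of memory and progenitor T cells were the list whose distal LSD1 sites were kept most often. Of 46 distal sites nearest to such a gene, 33 were kept (71.7%, 57.5 to 82.7), against 34.4% of all distal sites. These sites had strong LSD1 peaks, 23 of them in strength class 4, and all distal sites in the same mix of classes had a kept share of 48.4%, below the interval of the list. That interval takes neighbouring sites of the same gene as independent, and the list was 1 of 9 compared. H3K4me3 in either treatment was at 41.3% of the 46 sites, kept and lost together, against 36.0% of all kept and 10.5% of all lost sites. Of the 46 sites 27 lacked H3K4me3, and of all 11941 distal sites 9639 did. Without H3K4me3 sites, 17 of 27 (63.0%, 44.2 to 78.5) were kept, where the same mix of strength classes gave 39.8% over all distal sites without H3K4me3. The 33 sites belonged to 10 of 13 genes. Bach2 had 9, Lef1 6, and Klf2, S1pr1 and Tcf7 4 each. Cxcr5 had 2 and Ccr7, Foxo1, Il7r and Slamf6 1 each, the last pair in windows that were 100% and 92.5% repeat-masked. The map of sites around 7 genes shows where they lie.

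**Figure D5:**
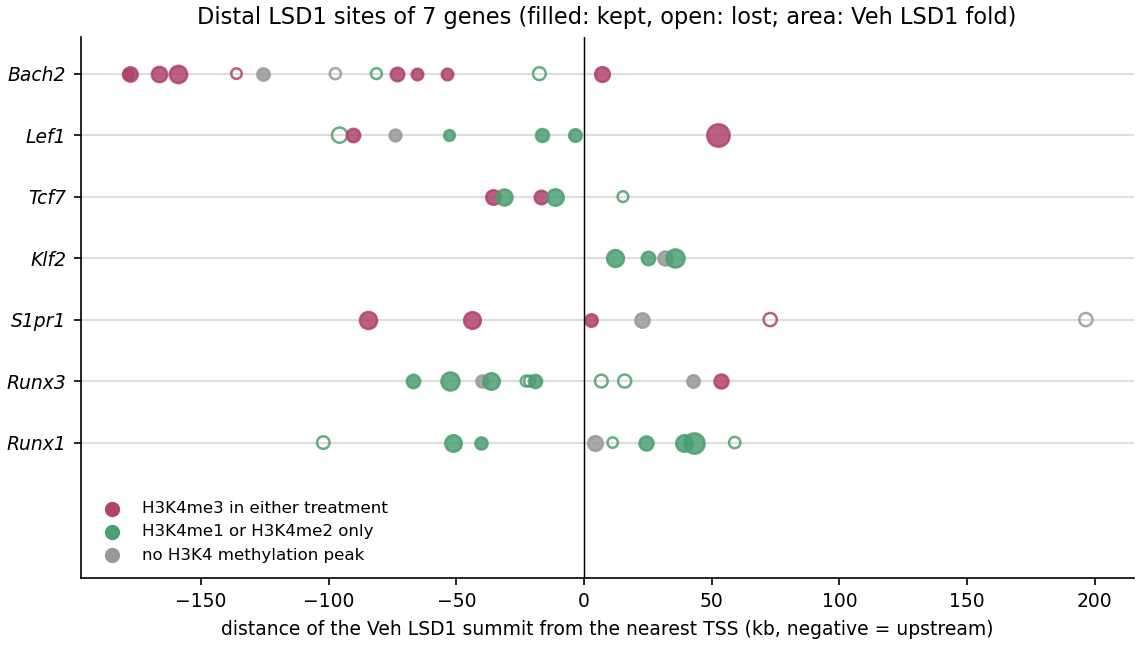
Distal Veh LSD1 sites nearest to 7 genes by distance from the TSS (x axis, kb, negative is upstream). Filled circles were kept and open circles lost, the area follows the Veh LSD1 fold, and colour shows H3K4me3 in either treatment, H3K4me1 or H3K4me2 alone, or neither. Klf2 has 4 kept sites and 0 lost ones, Lef1 6 and 1, and Bach2 9 and 4.

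Lef1 and Tcf7 encode the paired HMG-box factors of naive and stem-like T cells. The Lef1 site 52.4 kb downstream of the TSS, in an intron (chr3:131208350-131209015), had LSD1 at 12.8-fold in Veh and 9.39-fold in GSK. It had a peak in all 10 other lists, with H3K4me1 at 4.71-fold in Veh and 4.06-fold in GSK, H3K4me2 at 4.70-fold and 5.41-fold, H3K4me3 at 4.06-fold and 4.43-fold, H3K27ac at 4.29-fold and 5.99-fold, and Pol II at 5.26-fold and 3.73-fold. The 4 kept sites of Tcf7 were intergenic and 11.3 to 35.5 kb upstream of the TSS, with Veh LSD1 from 4.72-fold to 6.91-fold and GSK LSD1 from 3.72-fold to 6.96-fold. Klf2, a factor of quiescence and recirculation, had its strongest site 35.4 kb away in an intron of Eps15l1 (chr8:72354111-72354742), where LSD1 was 8.46-fold in Veh and 4.99-fold in GSK, and H3K4me2 and H3K27ac were called in Veh only and Pol II in GSK only. S1pr1, the receptor for egress from lymphoid tissue, had its site of highest LSD1 −log10 p (22.9) 43.8 kb from the TSS (chr3:115758430-115759118), with LSD1 at 7.15-fold in Veh and 8.67-fold in GSK and H3K4me3 at 5.50-fold and 4.98-fold.

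Effector and cytokine genes had 14 kept of 23 distal sites (60.9%, 40.8 to 77.8), where their mix of strength classes gave 52.6%, inside the interval. Fasl had 4 kept sites, Gzmb 3, and Ccl5 and Ifng 2 each. The Ifng site 21.9 kb from the TSS (chr10:118418677-118419457) had LSD1 at 7.80-fold in Veh and 9.62-fold in GSK with H3K4me1 in both. The Gzmb site 13.9 kb from the TSS (chr14:56275962-56276472) had LSD1 at 7.11-fold and 8.05-fold, H3K4me3 at 4.92-fold and 4.99-fold and H3K27ac at 3.46-fold and 4.25-fold. Inhibitory receptors had 5 kept of 16 (31.3%, 14.2 to 55.6), namely 2 of Entpd1 and 1 each of Cd160, Havcr2 and Tigit. The Tigit site 26.1 kb from the TSS (chr16:43690066-43690681) had LSD1 at 9.35-fold and 6.01-fold. All 3 distal sites of Ctla4 and the 1 of Lag3 were lost.

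T cell transcription factors had 69 kept of 140 distal sites (49.3%, 41.1 to 57.5), and their mix of strength classes gave 44.4%. Beside Maf, Runx3 and Runx1, Irf8 had 4 and Fos, Nfatc2, Nfkb1, Nr4a1, Prdm1, Runx2 and Tox had 3 each. All 5 distal sites of Irf4 and all 5 of Fli1 were lost. For the inhibitory receptors, with 31.3% kept, the mix of classes gave 44.8%. There and in the remaining lists the share that the mix of classes gives also lay inside the interval. These intervals are wide, so a difference in either direction could not be told from counting error. Cytokine receptors had 17 of 34 kept (50.0%, 34.1 to 65.9), 5 of them at Il21r. Migration genes had 21 of 46 (45.7%, 32.1 to 59.8), 5 at Cxcr4 and 4 at S1pr1, which the memory list shares along with Ccr7. Negative feedback regulators had 19 of 39 (48.7%, 33.9 to 63.8), 5 at Socs1. TCR and costimulation genes had 8 of 26 (30.8%, 16.5 to 50.0) and LSD1 and its partners 5 of 14 (35.7%, 16.3 to 61.2), 3 of them at Gse1.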

How the data were processed

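ChIP-seq peak lists of 12 libraries were used, and the 4 input samples, which carry no peak list, were not analysed here. Per the labels and methods, uniquely placed Bowtie2 alignments on mm10, without PCR duplicates, went into the authors' MACS2 peak calls, which were made per library, as broad peaks for the histone marks and narrow peaks for LSD1 and Pol II. Which input and which sequencing instrument served which library is not given in the sources used here. The deposited lists give each peak a fold enrichment, a ratio of pileup to local background, with a −log10 p and a −log10 q. The score column deposited by the authors is a rescaled −log10 p or q and was not used. LSD1 peaks reached down to a −log10 p of 3.01 in Veh, while the histone lists began at a −log10 q of 3.01 to 3.03. The column of summit offsets (deposited, in bp from the peak start) located each summit. Read depth is not part of these files, and the read numbers of the study's reporting summary were not used in any computation.

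TSSs were 31601 positions of curated RefSeq transcripts on GRCm38.p6. Overlaps needed 1 bp, and a site with several peaks of a list took the highest fold. The 4 strength classes were cut on the Veh −log10 p of all distal sites. The share that a list's mix of classes gives is the kept share of all distal sites in each class, averaged over the sites of the list. Motifs were searched on both strands and sequences read from RefSeq GRCm38.p6. Coordinates count from 1. Python 3.11.15, numpy 2.4.6 and pandas 2.3.3 were used, and the overlap, interval and motif code was tested on simulated data.

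The named sites were the 8 with the highest lower −log10 p of both treatments, up to 4 genes per gene list with their site of highest Veh LSD1 −log10 p, the genes nearest to the most kept sites, the sites of highest H3K27ac, Pol II or one-treatment H3K4me1 and H3K4me2, and those at the limits of the rule. From these, a selection is described. The Lef1, Bach2, Maf, Cxcr4 and Gphn sequences were the first of the H3K27ac sites and of the gene-list sites, by number of kept sites, with a motif and under 50% of repeats. Of the most significant sites, none met this. Where text names further features of a gene list, they were chosen after their values were seen. The members, gene lists, motifs and limits were chosen with earlier results of these data known. Some items of the marker and gene lists are not reported here.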

Additional observations from a re-analysis of the deposited data

How the results depend on the processing

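With 1 library per list, no result has a replicate check here, and the computations did not adjust for read depth. No paired analysis was possible because the numbered samples are inputs, which have no peak list, and no result comes from a test. The RUNX difference changed direction, to -2.15 points as a mean over strength classes. Small motif differences, whose interval over all sites held 0, also changed sign: GFI1 (-0.8318), CRE (-0.06179), STAT (-0.01218) and AICE1 (-0.1021) as means over classes, YY1 (-0.04278) without H3K4me3 sites, and TCF/LEF without them (0.6739) and with 50 bp on each side (0.09030). The cause was not tested.

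The kept share of 34.4% became 29.98% where the GSK peak had to cover 50% of the Veh peak, 28.08% with summits within 200 bp, 32.78% with all RefSeq transcripts, 41.56% at a −log10 q of at least 2 and 37.37% with LSD1 lists of equal length. In percentage points, the kept minus lost differences under 50% cover were 22.70 (Veh) and 23.61 (GSK) for H3K4me1, 21.96 for Veh H3K4me2, 18.89 and 23.31 for H3K4me3 and 13.22 and 5.174 for H3K27ac. At a −log10 q of at least 2 they were 12.81 and 12.66 for H3K4me1, 20.58 for Veh H3K4me2, 18.24 and 22.30 for H3K4me3, 13.01 for Veh H3K27ac and 9.858 for Veh Pol II. As means over strength classes they were 19.18 and 20.00 for H3K4me1, 10.63 and 4.411 for H3K27ac and 10.13 and 7.915 for Pol II. Where the mark had to cover the LSD1 summit they were 23.20 and 23.57 for H3K4me1, 18.01 and 12.44 for H3K4me2, 15.40 and 19.36 for H3K4me3, 10.46 and 3.270 for H3K27ac and 6.944 and 4.631 for Pol II. Without H3K4me3 sites they were 31.44 and 33.08 for H3K4me1, 12.87 and 6.197 for H3K4me2, 9.059 and 2.047 for H3K27ac and 3.637 and 2.362 for Pol II.

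Net changes with mark lists of equal length were 1.072 for H3K4me1, -1.705 for H3K4me2, 1.657 for H3K4me3 and -0.2923 for H3K27ac. Without H3K4me3 sites they were 4.454 for H3K4me1, -10.16 for H3K4me2, -9.935 for H3K27ac and -1.561 for Pol II, and where the mark covered the summit -9.890 for H3K4me2, 5.189 for H3K4me3 and -10.79 for H3K27ac. Motif differences with 50 bp on each side were 4.286 for RUNX, 1.996 for AP-1, 1.923 for SP/KLF and -1.251 for GATA. As means over classes they were 2.642 for ETS and 0.06398 for AP-1, and without H3K4me3 sites 10.55 for RUNX, 6.221 for AP-1 and 1.211 for SP/KLF. The following alternatives were chosen after seeing the data, as were the memory list without H3K4me3 and the class values of exons, repeats, GFI1 and the 3 motifs together. With 10 strength classes the differences were 17.72 and 18.91 for H3K4me1, 10.60 and 4.347 for H3K27ac and 9.643 and 7.628 for Pol II. Without repeat-rich sites and sites in every list they were 21.54 and 21.22 for H3K4me1, and net changes were 1.935 for H3K4me1, -15.45 for H3K4me2, 7.009 for H3K4me3 and -14.96 for H3K27ac.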
